A study of Sus scrofa with 6 samples.

Results

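The contractile thin filament genes ACTA2, ACTG2, TPM1, TPM2, CALD1 and NEXN, were followed by RNA sequencing through the reprogramming of pig fibroblasts. They are 6 genes picked by symbol, with earlier results of these data known. All 6 had a row among the 25322 gene IDs of the deposited table. The genes were lower in both groups of porcine induced pluripotent stem cells (piPSCs) than in the fibroblasts, from 14.7-fold for NEXN to 264-fold for ACTA2 at passage 5 and from 21.2-fold for NEXN to 322-fold for ACTG2 at passage 10. Between the piPSC groups, ACTG2 alone of the 6 differed by at least 2-fold, as did 2247 of the 13998 IDs compared.

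Actin filaments that carry tropomyosin along their length and slide against myosin give a fibroblast its stress fibres and a smooth muscle cell its force. ACTA2 and ACTG2 encode the smooth muscle actins, of vascular and enteric type. TPM1 and TPM2 encode tropomyosins, which lie along the filament and govern access of myosin. CALD1 encodes caldesmon, which binds actin and tropomyosin and restrains the myosin ATPase, and NEXN encodes nexilin, an actin-binding protein of muscle Z-discs and cell-matrix adhesions. In cultured fibroblasts several of these genes are classical targets of serum response factor (SRF) and its actin-sensing partners of the MRTF family, and strong ACTA2 expression marks the myofibroblast state. Loss of the mesenchymal cytoskeleton is a known step of reprogramming.

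All cells came from the Small Xiang Pig. The piPSCs at passage 10 were described as Rex1- (P10), the piPSCs at passage 5 as Rex1+ (P5), and PEF, the progenitor fibroblasts, were at passage 5. The labels name no reprogramming vector, culture medium, clone or animal for these libraries. Passage and Rex1 state differ together between P10 and P5, so their effects cannot be told apart. Each group had 2 libraries, but the table gives 1 FPKM value per gene and group (sequenced fragments corrected for the length of the gene and the size of the library). No spread between libraries, no SD and no p-value could therefore be had, and every difference is without a replicate check. Differences are given on the log2(FPKM + 1) scale, and a gene is called higher or lower from a difference of 1, a 2-fold change. In bulk RNA, fewer cells of a type and less RNA per cell cannot be told apart.

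The FPKM summed to 826083 in P10, 628992 in P5 and 821130 in PEF, and genes of the mitochondrial genome took 31.1%, 19.1% and 15.7% of these sums in P10, P5 and PEF. The labelled fibroblasts held their markers, since all 12 fibroblast marker genes with a row lay between 10.9 and 5403 FPKM in PEF.

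ACTA2 (ENSSSCG00000010447, chromosome 14, 109852734 to 109871621 on susScr3) was at 23.9 FPKM in P10, 18.4 FPKM in P5 and 4863 FPKM in PEF. It was the highest of the 6 in PEF, at rank 17 of all IDs, the lowest of them in P5 and the second lowest in P10. The P5 level was 0.378% and the P10 level 0.492% of that in PEF. On the log2(FPKM + 1) scale the differences were -7.97 for P5 minus PEF and -7.61 for P10 minus PEF. Counted from the lowest difference among the 13998 IDs compared, ACTA2 had rank 17 in P5 minus PEF and rank 21 in P10 minus PEF.

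ACTG2 (ENSSSCG00000008294, chromosome 3, 72251855 to 72310387) was at 5.94 FPKM in P10, 20.4 FPKM in P5 and 1911 FPKM in PEF. It was thus lowest in P10, and P5 stood between. The differences were -6.48 for P5 minus PEF and -8.11 for P10 minus PEF on the log2(FPKM + 1) scale, with rank 9 from the lowest in P10 minus PEF. The ratio of ACTA2 to ACTG2 FPKM was 4.03 in P10, 0.904 in P5 and 2.54 in PEF, so ACTG2 was slightly above ACTA2 in P5 alone. The coding sequences of the muscle actins are nearly identical, and no source used here says how reads common to them were divided. The sum of ACTA2, ACTG2, ACTC1 and ACTA1 was 39.9 FPKM in P10, 41.8 FPKM in P5 and 6792 FPKM in PEF.

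TPM1 (ENSSSCG00000004570, chromosome 1, 120217105 to 120240145) was at 117 FPKM in P10, 106 FPKM in P5 and 4412 FPKM in PEF. It had the highest level of the 6 in both piPSC groups, where it was 2.65% (P10) and 2.39% (P5) of the level in PEF. TPM2 (ENSSSCG00000005316, chromosome 1, 264127280 to 264134736) was at 27.5 FPKM in P10, 38.3 FPKM in P5 and 3201 FPKM in PEF. On the log2(FPKM + 1) scale the difference from PEF was -5.37 in P5 and -5.23 in P10 for TPM1, and -6.35 in P5 and -6.81 in P10 for TPM2. The tropomyosins thus differed unequally from PEF, and the ratio of TPM1 to TPM2 FPKM was 4.25 in P10, 2.75 in P5 and 1.38 in PEF.

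CALD1 (ENSSSCG00000016535, chromosome 18, 15075828 to 15194597) was at 54.4 FPKM in P10, 82.0 FPKM in P5 and 3398 FPKM in PEF, with differences of -5.36 for P5 minus PEF and -5.94 for P10 minus PEF on the log2(FPKM + 1) scale. NEXN (ENSSSCG00000003768) was at 60.2 FPKM in P10, 86.8 FPKM in P5 and 1277 FPKM in PEF, with differences of -3.86 for P5 minus PEF and -4.38 for P10 minus PEF. NEXN was the lowest of the 6 in PEF and the second highest in both piPSC groups, and its differences were the smallest of the 6. Its listed locus (chromosome 6, 125501539 to 125693958) is shared by 3 IDs, so its FPKM may hold reads of another gene. The others there were MIGA1, at 4.25 FPKM in P10, 5.26 FPKM in P5 and 7.41 FPKM in PEF, and an ID listed at 0 in every group. The loci of the other members overlapped no other ID.

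**Figure D1:**
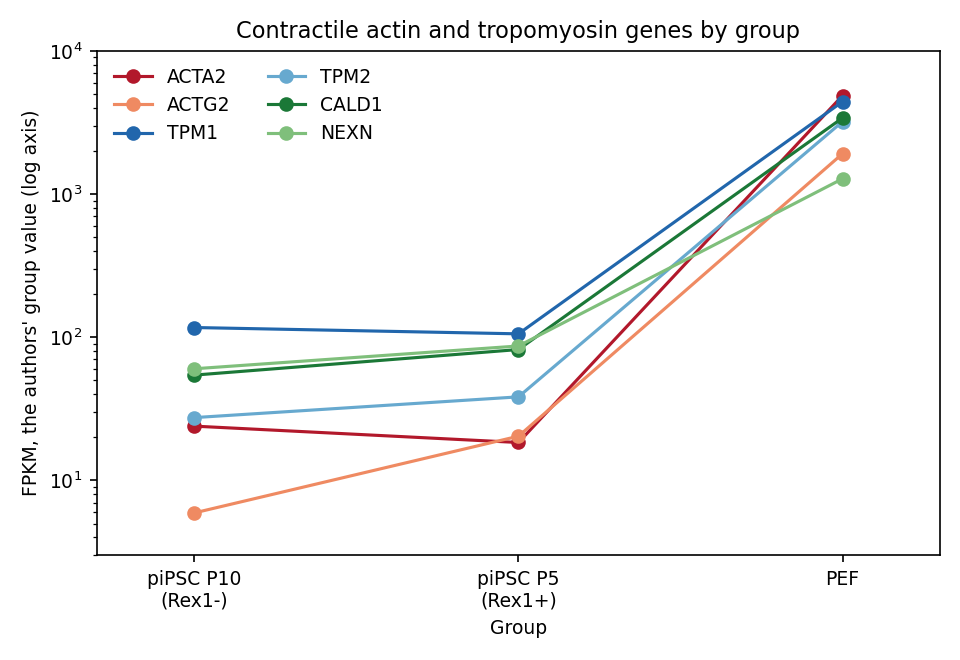
FPKM of the 6 genes (log axis) in piPSC P10, piPSC P5 and PEF, with 1 authors' value per group and a line joining the values of each gene. All 6 lie between 1277 and 4863 FPKM in PEF and at or below 117 FPKM in both piPSC groups, and ACTG2 stands apart at 5.94 FPKM in P10.

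All 6 genes were lower in each piPSC group than in PEF by at least 1 on the log2(FPKM + 1) scale, where 19.6% of all compared IDs were lower in P5 minus PEF and 19.3% in P10 minus PEF. Both comparisons use the same PEF column. The 6 genes were chosen with earlier results of these data known, so their counts and medians are a description and no independent test. The median difference of the 6 was -5.86 in P5 minus PEF, beside 0.09 over all compared IDs, and -6.38 in P10 minus PEF, beside 0.06. Every one of the 6 exceeded an FPKM of 1 in every group, so none entered through PEF alone. The comparison with all IDs does not take their high level in PEF into account. The 98 IDs with at least 1000 FPKM in PEF, a group set after the values were seen, include the 6 genes themselves. Of these 98 IDs, 52% were lower by at least 1 in P5 and 43.9% in P10. A difference of -3 or lower, which all 6 genes had, was reached by 34.7% of these IDs in P5 minus PEF and by 31.6% in P10 minus PEF. Together the 6 genes took 0.0350% of the FPKM sum in P10, 0.0559% in P5 and 2.32% in PEF. With mitochondrial genes left out of the sums, these shares were 0.0508% in P10, 0.0691% in P5 and 2.75% in PEF.

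The main paralogues of these genes stood closer to their PEF levels, so the make-up of both families differed between the groups. Beta-actin and gamma-actin, the cytoplasmic actins of all cells, are encoded by ACTB and ACTG1. ACTB was at 577 FPKM in P10, 788 FPKM in P5 and 1776 FPKM in PEF, and ACTG1 at 1279 FPKM in P10, 1202 FPKM in P5 and 4801 FPKM in PEF. Their differences on the log2(FPKM + 1) scale were -1.17 (ACTB) and -2.00 (ACTG1) in P5 minus PEF, and -1.62 (ACTB) and -1.91 (ACTG1) in P10 minus PEF. Over the scalings tried, the ACTB difference in P5 minus PEF ran from -1.17 to -0.73, so that call depends on the scaling. ACTA2 and ACTG2 made up 1.58% of the summed FPKM of the 6 actin genes in P10, 1.91% in P5 and 50.7% in PEF. This share is a ratio within a group, which multiplying a column by a constant does not alter. ACTC1, the cardiac actin, was at 4.47 FPKM in P10, 1.80 FPKM in P5 and 16.6 FPKM in PEF, a log2(FPKM + 1) difference of -2.65 in P5 minus PEF and -1.68 in P10 minus PEF. ACTA1, the skeletal muscle actin, was not lower in either piPSC group, at 5.57 FPKM in P10, 1.26 FPKM in P5 and 1.27 FPKM in PEF, a log2(FPKM + 1) difference of 1.53 in P10 minus PEF and -0.01 in P5 minus PEF.

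Of the other tropomyosin genes, TPM4, a mostly cytoplasmic form, was at 257 FPKM in P10, 424 FPKM in P5 and 4609 FPKM in PEF, and TPM3 is not analysed here. The TPM4 difference on the log2(FPKM + 1) scale was -3.44 in P5 minus PEF and -4.16 in P10 minus PEF, smaller in size than that of TPM1 or TPM2. TPM4 was the highest of the 3 tropomyosin genes in every group, near the level of TPM1 in PEF and further above it in the piPSCs. TPM1 and TPM2 together made up 35.9% of the summed FPKM of TPM1, TPM2 and TPM4 in P10, 25.3% in P5 and 62.3% in PEF. Tropomodulins cap the pointed end of tropomyosin-coated filaments. TMOD2, a form known from neurons, was at 11.4 FPKM in P10, 5.20 FPKM in P5 and 1.45 FPKM in PEF, a log2(FPKM + 1) difference of 1.34 in P5 minus PEF and 2.34 in P10 minus PEF. TMOD3, the widespread form, was at 50.3 FPKM in P10, 44.3 FPKM in P5 and 67.3 FPKM in PEF, under 2-fold in each comparison.

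**Figure D2:**
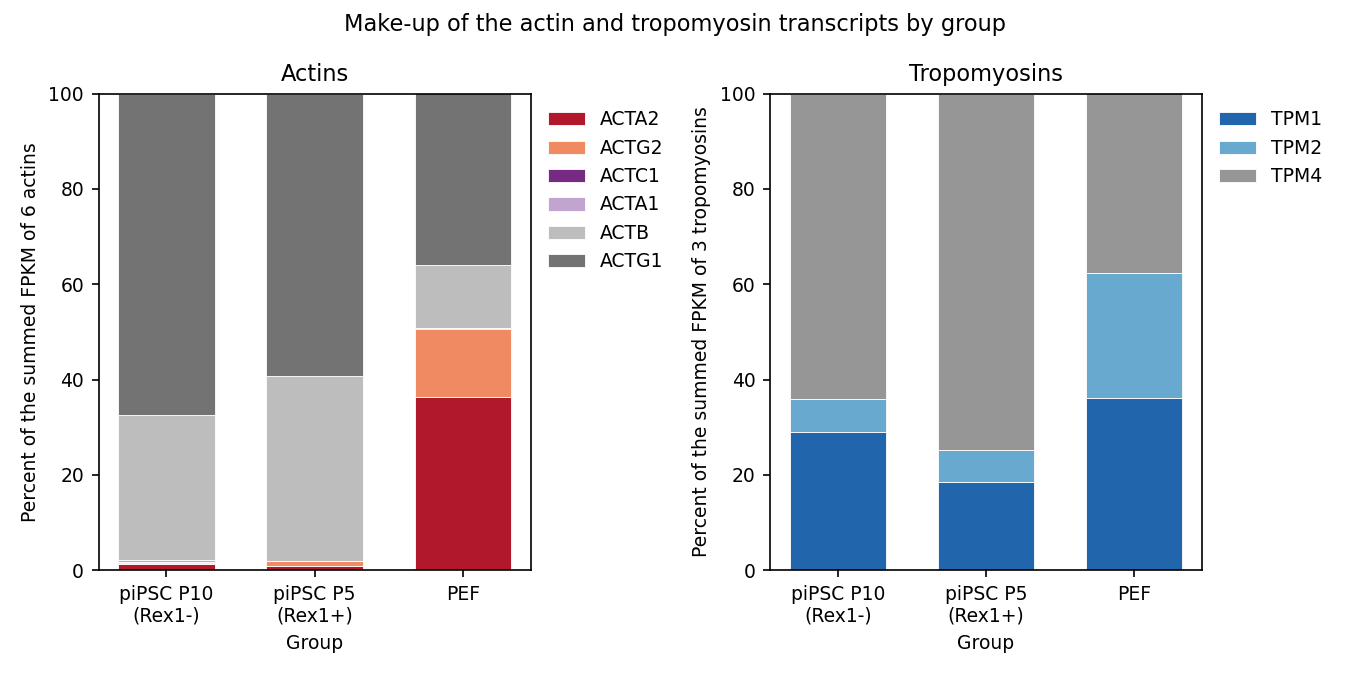
Percent of the summed FPKM of 6 actin genes (left) and of 3 tropomyosin genes (right) in piPSC P10, piPSC P5 and PEF, 1 authors' value per gene and group. ACTA2 and ACTG2 fill 50.7% of the actin bar in PEF and under 2% in both piPSC groups, while TPM4 takes 64.1% of the tropomyosin bar in P10, 74.7% in P5 and 37.7% in PEF.

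The calponins and transgelin bind the same filaments, and CNN1 and transgelin are used as smooth muscle markers. CNN1, the smooth muscle calponin, was at 4.15 FPKM in P10, 2.79 FPKM in P5 and 469 FPKM in PEF, a log2(FPKM + 1) difference of -6.96 in P5 minus PEF and -6.51 in P10 minus PEF. CNN3, the acidic calponin of many tissues, was at 331 FPKM in P10, 228 FPKM in P5 and 344 FPKM in PEF, at a locus shared by 2 IDs. Its difference in P10 minus PEF was -0.06 and ran up to 0.32 over the scalings, so it has no settled sign. TAGLN (transgelin) was at 93.7 FPKM in P10, 43.7 FPKM in P5 and 1506 FPKM in PEF, a log2(FPKM + 1) difference of -5.08 in P5 minus PEF and -3.99 in P10 minus PEF. ACTA2, ACTG2, TPM1, TPM2 and CNN1 thus differed more from PEF than ACTB, ACTG1, TPM4 and CNN3 of the same families. The other muscle actins did not all do so. ACTA1 had a log2(FPKM + 1) difference of -0.01 in P5 minus PEF and 1.53 in P10 minus PEF. ACTC1 had -2.65 in P5 minus PEF, past ACTG1 at -2.00, and -1.68 in P10 minus PEF, short of ACTG1 at -1.91.

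Myosin II and its control genes were lower in part. Beside the counts of this and the next lists stand 19.6% lower and 21.4% higher of all compared IDs in P5 minus PEF, and 19.3% lower and 19.1% higher in P10 minus PEF. Of 15 genes listed, 10 had a row, and 6 of 10 were lower in P5 minus PEF with none higher, at a median log2(FPKM + 1) difference of -1.51. The median was -1.67 in P10 minus PEF, where 6 were lower and 1 higher. MYH9, the main non-muscle myosin heavy chain, was at 64.7 FPKM in P10, 112 FPKM in P5 and 1185 FPKM in PEF. MYLK, the kinase that switches smooth muscle myosin on, was at 7.61 FPKM in P10, 4.36 FPKM in P5 and 135 FPKM in PEF.

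Crosslinkers and adhesion proteins that anchor stress fibres were mostly lower. Of 31 genes listed, 17 were compared, 14 were lower and 1 was higher in each piPSC group, with a median log2(FPKM + 1) difference of -2.21 in P5 minus PEF and -2.32 in P10 minus PEF. VCL (vinculin), which links adhesions to actin, was at 99.5 FPKM in P10, 63.9 FPKM in P5 and 595 FPKM in PEF. TLN1 (talin), which couples integrins to actin, was at 22.2 FPKM in P10, 22.0 FPKM in P5 and 215 FPKM in PEF. The locus of TLN1 begins 6338 bases after that of TPM2, and it was the 1 nearest neighbour of the 6 genes with a difference of -3 or lower. PDLIM5, an alpha-actinin-binding scaffold, was at 7.67 FPKM in P10, 7.24 FPKM in P5 and 85.8 FPKM in PEF. SYNPO2, an actin-bundling protein of smooth muscle, was at 0.113 FPKM in P10, 2.64 FPKM in P5 and 47.5 FPKM in PEF.

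Genes of actin turnover, which build and sever filaments in all cells, differed less from PEF. Of 24 genes compared, 14 were lower and 2 were higher in P5 minus PEF, and 16 were lower and none higher in P10 minus PEF, with median log2(FPKM + 1) differences of -1.35 in P5 and -1.40 in P10. Over the scalings the number lower ran from 12 to 14 in P5 minus PEF and from 12 to 16 in P10 minus PEF. MSN (moesin), which ties actin to the membrane, was at 23.6 FPKM in P10, 55.5 FPKM in P5 and 497 FPKM in PEF. DSTN (destrin), which severs filaments, was at 218 FPKM in P10, 92.5 FPKM in P5 and 754 FPKM in PEF.

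Transcription factors of the SRF and YAP pathways differed from PEF to unequal extents. SRF was at 16.5 FPKM in P10, 21.4 FPKM in P5 and 24.0 FPKM in PEF, and MRTFA, its actin-sensing partner, at 12.9 FPKM in P10, 9.90 FPKM in P5 and 19.6 FPKM in PEF. Neither passed 2-fold against PEF, and the SRF difference in P5 minus PEF, -0.16, ran up to 0.26 over the scalings, so it has no settled sign. SRF and MRTFA were named after their values were seen. Of the 8 genes compared on the list of regulators, which also holds TAGLN, 4 were lower in P5 minus PEF and 5 in P10 minus PEF, with none higher. ELK3, a ternary complex factor that partners with SRF, was at 3.57 FPKM in P10, 4.29 FPKM in P5 and 86.9 FPKM in PEF. TEAD1, the DNA-binding partner of YAP, was at 24.9 FPKM in P10, 17.9 FPKM in P5 and 133 FPKM in PEF.

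Known targets of SRF or YAP outside the filament were lower in part. Of 10 compared, 5 were lower and 1 higher in P5 minus PEF, and 6 were lower and 2 higher in P10 minus PEF. CCN1, a matricellular protein, was at 28.7 FPKM in P10, 15.6 FPKM in P5 and 880 FPKM in PEF. Its relative CCN2 was at 56.5 FPKM in P10, 20.6 FPKM in P5 and 1583 FPKM in PEF. THBS1, a matrix glycoprotein, was listed at 0 in PEF and at 41.4 FPKM in P10 and 23.8 FPKM in P5. A value of exactly 0 can be a failed estimate, so no difference is given, although the gene is among those counted as higher. THBS1 was the only gene of the list so counted in P5 minus PEF. The other in P10 minus PEF was AJUBA, named after its value was seen, with a log2(FPKM + 1) difference of 1.08. AJUBA was at 21.5 FPKM in P10, 14.1 FPKM in P5 and 9.61 FPKM in PEF.

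TGF-beta is the best known inducer of ACTA2 in fibroblasts. Of 13 ligands, receptors, binding proteins and effectors, 8 were lower in P5 minus PEF and 7 in P10 minus PEF, with none higher. TGFBR2, the type II receptor, was at 0.889 FPKM in P10, 4.79 FPKM in P5 and 40.5 FPKM in PEF. LTBP2, a latent TGF-beta binding protein family member of elastic fibres, was at 0.207 FPKM in P10, 0.284 FPKM in P5 and 170 FPKM in PEF.

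**Figure D3:**
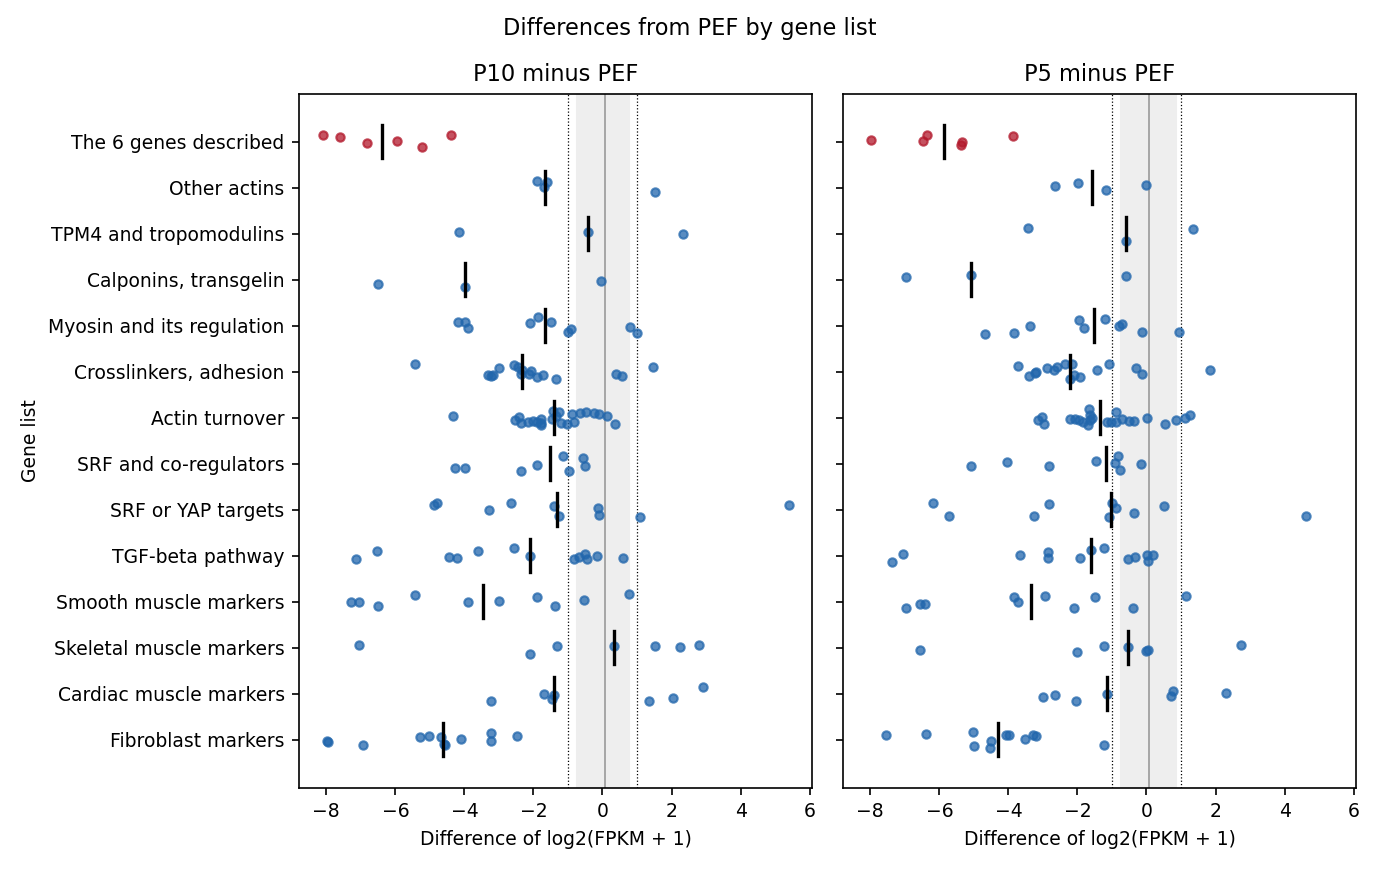
Differences of log2(FPKM + 1) from PEF for P10 (left) and P5 (right), 1 point per compared gene, grouped by list, with black bars at list medians. The grey band holds the middle 50% of all compared genes, the grey line is their median and dotted lines mark -1 and 1; the 6 genes (red) lie between -8.11 and -4.38 in P10 and between -7.97 and -3.86 in P5.

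Most markers of smooth muscle were lower together with the 6 genes. The 11 smooth muscle markers with a row summed to 87.4 FPKM in P10, 85.5 FPKM in P5 and 1789 FPKM in PEF, and 8 of 10 compared were lower in each piPSC group. CSRP1, named after its value was seen, gave 58.6 FPKM of these sums in P10, 50.2 FPKM in P5 and 219 FPKM in PEF. CNN1, MYH11, SYNPO2 and CSRP1, all among those lower, also stand on the lists above. SMTNL2, a smoothelin-like gene named after its value was seen, was higher in P5 minus PEF, with 0.827 FPKM in P10, 1.39 FPKM in P5 and 0.0825 FPKM in PEF. Its difference of 1.14 in P5 minus PEF ran from 0.89 to 1.29 over the scalings. DES (desmin), the muscle intermediate filament protein, was at 4.51 FPKM in P10, 6.67 FPKM in P5 and 727 FPKM in PEF, at a locus shared by 2 IDs. MYH11, the smooth muscle myosin heavy chain and the most restricted marker of that cell type, was at 0.140 FPKM in P10, 0.196 FPKM in P5 and 16.0 FPKM in PEF. KCNMB1, a smooth muscle potassium channel subunit, was listed at 0 in every group, and ITGA8, an integrin chain of contractile cells, was at 0.559 FPKM in P10, 1.82 FPKM in P5 and 240 FPKM in PEF. The 12 fibroblast markers summed to 1014 FPKM in P10, 722 FPKM in P5 and 8979 FPKM in PEF, and all 12 were lower in each piPSC group. Most of each sum came from the highest marker, at 969 FPKM in P10, 589 FPKM in P5 and 5403 FPKM in PEF. The median of the 12 was 2.32 FPKM in P10, 4.17 FPKM in P5 and 150 FPKM in PEF. With columns scaled to their sums without mitochondrial genes, 11 of 12 were lower in P5, since TWIST2, named after its value was seen, had a difference of -0.84 there, against -1.23 as deposited. The skeletal muscle determination gene MYOD1 was at 0.0146 FPKM in P10, listed at 0 in P5 and at 0.132 FPKM in PEF. The part of smooth muscle-like cells in the PEF levels was not tested. KCNMB1 and MYOD1 were named after their values were seen.

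P10 was then set against P5. Over the 6 genes the differences of log2(FPKM + 1) in P10 minus P5 were 0.36 for ACTA2, 0.15 for TPM1, -0.47 for TPM2, -0.52 for NEXN, -0.58 for CALD1 and -1.62 for ACTG2. ACTG2 was the 1 of 6 past 2-fold, at 3.43 times less FPKM in P10 than in P5. Of the 13998 compared IDs, 2247 passed 2-fold in either direction, 1187 lower (8.48%) and 1060 higher. A count of 1 in 6 is thus near the share of all compared IDs. The median of the 6 was -0.49, beside -0.05 over all compared IDs. The sum of ACTA2 and ACTG2 differed by -0.37 and the sum of TPM1 and TPM2 by 0.00. With ACTC1 and ACTA1 added, the sum of the muscle actins differed by -0.07, and by -0.22 with columns scaled to their sums without mitochondrial genes. TAGLN had a difference of 1.08 in P10 minus P5 and CCN2 one of 1.42, both higher in P10; with columns scaled to their sums without mitochondrial genes the TAGLN difference was 0.93, under 2-fold. SYNPO2 was lower in P10, with a difference of -1.71, and WWTR1 (TAZ, the paralogue of YAP) likewise, with -1.12. These genes are examples, not picked by a rule for P10 minus P5. By list, 4 of 24 actin turnover genes were lower and 1 higher. Of 17 crosslinkers and adhesion genes, 2 were lower and none higher, and of 12 fibroblast markers, 4 were lower and none higher. Of 13 TGF-beta pathway genes and 10 smooth muscle markers, 1 each was lower and none higher. Of 8 SRF and YAP regulators, 1 was lower and 1 higher. Other lists held only higher calls, at 1 of 4 other actins and 1 of 10 SRF or YAP targets. TPM4 with the tropomodulins, and the calponins with transgelin, had 1 of 3 higher each. Skeletal and cardiac muscle markers had 2 of 7 higher each. None of 10 myosin genes was called. Over the scalings some counts moved by 1 gene.

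**Figure D4:**
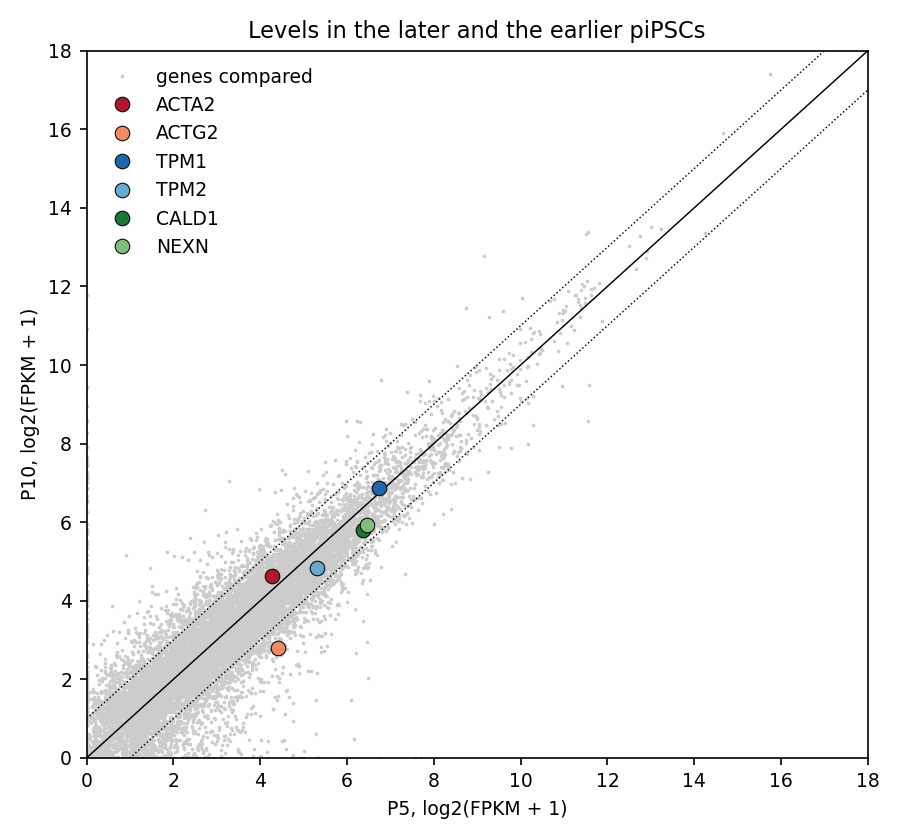
Level in P10 against level in P5 as log2(FPKM + 1) for all compared genes (grey) and the 6 genes (coloured), 1 authors' value per gene and group. The solid line marks equal levels and the dotted lines a difference of 1; 5 of the 6 genes lie within the dotted lines and ACTG2 lies below them at -1.62.

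Genes with the most similar differences were sought among the 550 non-members that had a symbol and at least 100 FPKM in PEF, by Euclidean distance from the median pair of differences of the 6 genes (-5.86 in P5 minus PEF and -6.38 in P10 minus PEF), a measure that rests on 3 group values. The nearest was MYO1D, an unconventional myosin, at a distance of 0.19, with 1.85 FPKM in P10, 3.24 FPKM in P5 and 219 FPKM in PEF. COL11A1, a fibrillar collagen chain, followed at 0.37, with 3.69 FPKM in P10, 3.79 FPKM in P5 and 306 FPKM in PEF. ITGBL1, PAPSS2, IGFBP4 and PLA2G4A followed at 0.44, 0.44, 0.56 and 0.61. MYO1D and PAPSS2 lie at loci that 2 IDs share.

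Of the 12 nearest IDs on either side of the 6 genes, 3 (25%) were lower by at least 1 in P5 minus PEF and 3 in P10 minus PEF. Of all compared IDs, 19.6% and 19.3% were lower in these comparisons. The sets are unlike, since the 12 were not filtered and some, such as STAMBPL1, stayed under 1 FPKM in every group. STAMBPL1, 8458 bases before ACTA2, was at 0.228 FPKM in P10, 0.879 FPKM in P5 and 0.0220 FPKM in PEF, and FAS, 40336 bases after it, at 6.12 FPKM in P10, 5.67 FPKM in P5 and 13.4 FPKM in PEF. DGUOK, 5989 bases before ACTG2, was at 14.6 FPKM in P10, 12.0 FPKM in P5 and 6.14 FPKM in PEF. FUBP1, 5764 bases before the NEXN locus, was at 127 FPKM in P10, 133 FPKM in P5 and 62.1 FPKM in PEF.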

How the data were processed

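RNA of 6 pig libraries, 2 per group, was sequenced. The submitters' processing notes name Bowtie2 2.0.6, TopHat2 2.0.9 and susScr3. The authors deposited FPKM, per the file headers, in 1 column per group. The FPKM program, the annotation, the way of combining libraries and whether locus starts count from 0 or 1 were not given in the sources used here.

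Symbols for 11804 of 25322 IDs (46.6%) came from a reference table. Genes without a match, such as TPM3, are not analysed here. IDs reaching 1 FPKM in any group (13998) were compared as log2(FPKM + 1), which understates differences of low genes. limma was planned for values per library only, so differences are described without a test. The code was tested on simulated data.

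The 6 genes and the lists were chosen with earlier results of these data known. Named are the 6 genes, their actin, tropomyosin and calponin relatives, and up to 4 genes per list with an FPKM of at least 5 and the largest differences from PEF (not all are printed).

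Depth is unknown. Values under 0.15 FPKM hint at 1.42 (P10) and 0.728 (P5) times the depth of PEF, from 21 of 678 and 16 of 589 IDs at the commonest ratio. Pseudocounts, filters, scalings, a stricter call and unshared loci were varied. Python 3.11.15, pandas 2.3.3 and numpy 2.4.6 were used.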

Additional observations from a re-analysis of the deposited data

How the results depend on the processing

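Each of the 6 genes was lower in P5 and in P10 than in PEF by more than 2-fold under every alternative that kept it (NEXN leaves with IDs sharing a locus), and ACTG2 was lower in P10 than in P5 under all of them, from -1.78 to -1.21, missing only the stricter call of 2. The median over members ran from -6.35 to -5.36 in P5 minus PEF and from -6.81 to -5.58 in P10 minus PEF. Both -5.36 and -5.58 were found without ACTA2 and ACTG2, a choice made after seeing the data. TPM1 in P10 minus P5 had no settled sign (-0.01 to 0.21). Over the scalings, counts of the gene lists against PEF moved by at most 2 genes, except for actin turnover in P10 minus PEF.

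The background depended on the settings. In P10 minus P5, 2247 of 13998 IDs passed 2-fold, against 3418 with a pseudocount of 0.1, 878 with one of 5 and 374 with a difference of 2. A mean FPKM of at least 5 left 9222 IDs, of which 1366 passed, so counts under that mean are out of fewer IDs. In P10 minus PEF the number past 2-fold was 5383, against 3011 with a pseudocount of 5, 3495 of the 9222 IDs with that mean and 2031 with that difference. In P5 minus PEF it was 5734, against 3242 with a pseudocount of 5 and 2042 with that difference. Scaling to sums without mitochondrial genes moved the median of all genes to 0.46 (P5 minus PEF), 0.29 (P10 minus PEF) and -0.19 (P10 minus P5). The split of lower and higher calls became 1954 and 4323, against 2744 and 2990, in P5 minus PEF. It became 2130 and 3357, against 2705 and 2678, in P10 minus PEF, and 1588 and 870, against 1187 and 1060, in P10 minus P5.

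No paired analysis was possible because the columns carry no replicate numbers, and leaving out a replicate was not run for the same reason.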

Other observations

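A few genes of striated muscle were higher than in PEF in both piPSC groups or in P10. TNNT1, the slow skeletal troponin T, was at 60.6 FPKM in P10, 84.9 FPKM in P5 and 12.0 FPKM in PEF, a log2(FPKM + 1) difference of 2.73 in P5 minus PEF and 2.25 in P10 minus PEF. TNNC1, the slow and cardiac troponin C, was at 6.37 FPKM in P10, 13.4 FPKM in P5 and 1.92 FPKM in PEF, likewise past 2-fold in both. On the log2(FPKM + 1) scale, MYH6 and MYMK passed a difference of 1 against PEF in P10 and not in P5. For MYH6 that scale understates the P5 difference, 0.70, since its P5 FPKM was 490 times a PEF value close to none. MYH6, the atrial myosin heavy chain, was at 6.59 FPKM in P10, 0.623 FPKM in P5 and 0.00127 FPKM in PEF, at a locus shared by 2 IDs. MYMK, the myoblast fusion protein myomaker, was at 6.49 FPKM in P10, 0.105 FPKM in P5 and 0.0821 FPKM in PEF.

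The lists they belong to went more than one way. Of 23 skeletal muscle markers listed, 13 had a row and 7 were compared, and of 16 cardiac markers 9 had a row and 7 were compared. In P10 minus PEF, 3 of 7 skeletal markers were higher and 3 lower, and 3 of 7 cardiac markers were higher and 4 lower. Of all compared IDs, 19.1% were higher and 19.3% lower there. Some genes, such as DES, stand on more than 1 list. In P5 minus PEF, 1 skeletal marker was higher and 3 were lower, and 1 cardiac marker was higher and 4 were lower. Of all compared IDs, 21.4% were higher and 19.6% lower in that comparison. TBX5, a transcription factor of heart and forelimb, was at 0.0391 FPKM in P10, 0.236 FPKM in P5 and 8.80 FPKM in PEF.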
